A study of Nannochloropsis oceanica with 6 samples.

Results

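The 4 genes of *Nannochloropsis oceanica* IMET1 that are listed under the urea cycle and arginine metabolism are described here, out of 10569 genes in the tables. They were picked by identifier and annotation with earlier results of these data known, so their own values are given as a description and none of them is tested. Messenger RNA of this marine oil-storing microalga was measured in 6 libraries, with 2 libraries in each of 3 groups. The C0 libraries were taken at day 0 from logarithmic cells of strain IMET1 in nitrogen-replete f/2 medium in continuous light (80 µmol photons m-2 s-1). For N1 and N2, cells from such cultures had been spun down, rinsed in medium lacking nitrogen and kept in it for 1 and 2 days at a light of 50 µmol photons m-2 s-1. Nitrogen-replete cells of day 1 or 2 were not analysed here, so the lack of nitrogen, the lower light, the washing and the passage of time cannot be told apart. Of the libraries used, N2 replicate 2 has no treatment in its label and was placed by its title. The study's text calls the RNA libraries biological replicates. The labels do not state that they stem from independent cultures, and p-values therefore measure the spread between these libraries only, which may in part be technical.

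In plants and algae, arginine is made from glutamate by way of ornithine, whose amino group is protected by an acetyl group on the way. Ornithine carbamoyltransferase joins ornithine with carbamoyl phosphate to citrulline, argininosuccinate synthase adds aspartate to citrulline at the cost of ATP, and argininosuccinate lyase releases arginine and fumarate. Arginase splits arginine into ornithine and urea, which closes the cycle, and urease returns the nitrogen of urea as ammonium. In animals the cycle disposes of excess ammonium, whereas in plants and algae arginine is known as a nitrogen store and as the source of polyamines and proline.

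The 4 genes are NO04G04600 (ornithine carbamoyltransferase), NO05G00910 (argininosuccinate synthase), NO16G01720 (arginase-1) and NO07G03880 (arginase/deacetylase), on chromosomes 4, 5, 16 and 7 by the digits before the G of the identifiers. The annotation of the first 3 fits their names. The carbamoyltransferase and the synthase carry the gene ontology term of the urea cycle, and NO16G01720 carries that of arginase activity. The annotation of NO07G03880 goes against its place among arginine enzymes. Only its best protein match bears the family name arginase/deacetylase, its orthology entry is histone deacetylase HDAC6, its orthologous group is a histone deacetylase, and it has no ontology term of arginine, arginase or the urea cycle. Arginases and histone deacetylases are known to share a protein fold, and NO07G03880 is called the arginase/deacetylase gene below without a claim on its substrate. All 4 genes had whole-number estimated counts in all 6 libraries.

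The library totals lay between 4875888 and 6523021 estimated counts, and 9736 genes with enough counts were tested. Of these, edgeR's quasi-likelihood test called 70.4% between N1 and C0, 69.9% between N2 and C0 and 57.9% between N2 and N1 at a Benjamini-Hochberg adjusted p below 0.05. The median log2 fold change of all tested genes was -0.044, 0.009 and 0.005 in the same order. Higher genes made up 50.8% of the calls between N2 and N1, and 61.1% where library totals alone scaled the counts. Because the libraries come from bulk cells, fewer cells of a kind and less RNA per cell cannot be told apart. Levels are given in FPKM, fragments scaled by transcript length and library total, when genes are compared with each other, and in estimated counts or CPM, counts scaled to the library total with TMM factors, when libraries are compared.

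The synthase was the most abundant of the 4 genes in every library, and was the gene with the widest swing. Argininosuccinate synthase (NO05G00910) had 213 and 213 FPKM in the C0 libraries, 475 and 459 in the N1 libraries, and 263 and 248 in the N2 libraries. Both N1 libraries stood far above the other 4, and both N2 libraries lay above C0, with no overlap between groups. The share of all tested genes with 3 groups apart is not given here. A lack of overlap, here and below, is thus a description and not a trait shown to be particular to these genes. In estimated counts the libraries held 1685 and 1735 in C0, 3894 and 3508 in N1, then 2750 and 2514 in N2. On the CPM scale the mean went from 333 ± 1.6 (SD, n = 2) in C0 to 760 ± 17.1 in N1 and 395 ± 15.6 in N2. The level in N1 was thus 2.28-fold that in C0 (log2 fold change 1.19 ± 0.047, approximate SE of the fit), and that in N2 was 1.19-fold (0.25 ± 0.047). From N1 to N2 the log2 fold change was -0.94 ± 0.046. Of the CPM difference between C0 and N1, 14.5% was left at day 2.

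Arginase-1, which breaks down the arginine that the synthase pathway makes, had the reverse course. NO16G01720 had 69.4 and 74.0 FPKM in C0, 32.7 and 37.3 in N1, then 51.5 and 50.6 in N2. Its 3 groups did not overlap, with N1 lowest and N2 between N1 and C0. The estimated counts were 346 and 381 in C0, 168 and 186 in N1, then 349 and 338 in N2, where the larger library totals of N2 bring its counts near those of C0. The CPM means were 70.8 ± 3.02, 36.5 ± 4.49 and 51.6 ± 0.0739 in C0, N1 and N2. Those means give a level 0.514-fold that of C0 in N1 (log2 fold change -0.96 ± 0.11) and 0.729-fold in N2 (-0.46 ± 0.094). Between N1 and N2 the log2 fold change was 0.50 ± 0.11, and 55.9% of the CPM difference from C0 was left at day 2.

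Ornithine carbamoyltransferase, the step before the synthase, did not share its first-day peak. NO04G04600 had 81.6 and 84.3 FPKM in C0, 59.6 and 69.6 in N1, then 54.0 and 54.4 in N2. The groups lay in descending order without overlap, but the 2 N1 libraries were far apart. Counts of 604 and 644 in C0, 458 and 498 in N1, then 531 and 517 in N2 underlay these levels. In CPM the means of C0, N1 and N2 were 122 ± 2.42, 98.5 ± 10.9 and 78.7 ± 0.408. The level relative to C0 was 0.808-fold in N1 (log2 fold change -0.31 ± 0.079) and 0.647-fold in N2 (-0.63 ± 0.078), and N2 relative to N1 had a log2 fold change of -0.32 ± 0.081. Without N1 replicate 1 the difference between N1 and C0 was -0.20. The 2 N1 counts of this gene differed by 2.42 counting errors after scaling, the largest difference among the 12 pairs of replicates of the 4 genes (the next was the synthase in N2, with 2.02).

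The arginase/deacetylase gene was the only one of the 4 whose highest level came at day 2. NO07G03880 had 44.3 and 43.2 FPKM in C0, 49.8 and 48.5 in N1, then 71.4 and 72.5 in N2. All 3 groups were apart, the first by a narrow margin. Its estimated counts were 416 and 426 in C0, 471 and 430 in N1, then 858 and 841 in N2, so that N1 replicate 2 and C0 replicate 2 held nearly the same number before scaling. With TMM scaling the CPM mean was 82.1 ± 0.712, 92.5 ± 1.21 and 128 ± 1.27. Relative to C0 the level was 1.13-fold in N1 (log2 fold change 0.17 ± 0.071) and 1.56-fold in N2 (0.64 ± 0.065), with a log2 fold change of 0.46 ± 0.065 between N1 and N2.

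**Figure D1:**
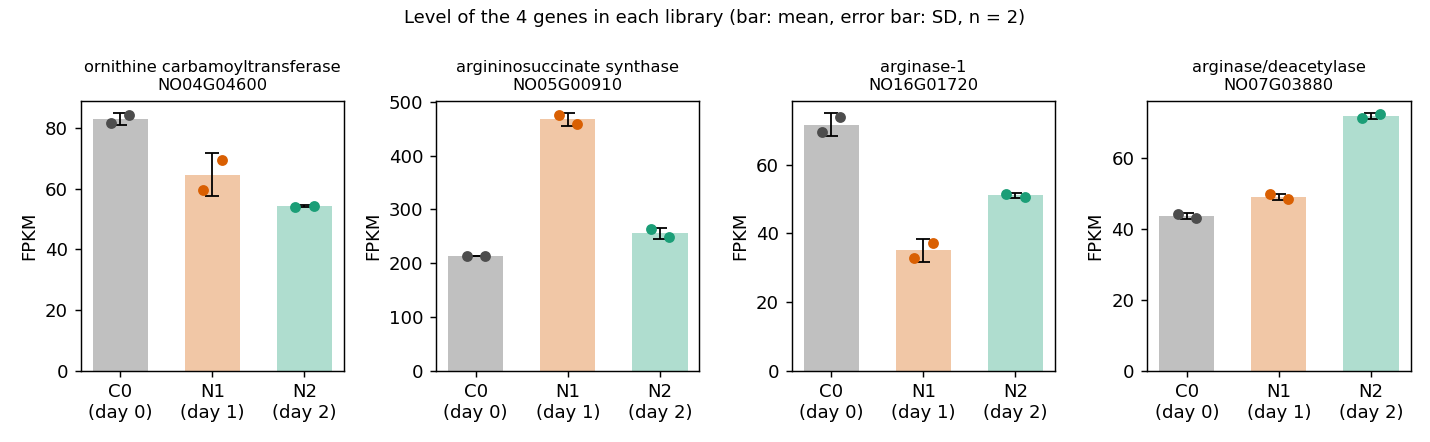
Level in FPKM (vertical axis, from 0, a separate scale for each gene) of the 4 genes in C0, N1 and N2, with 1 point per library, bars for the mean and error bars for the SD of 2 libraries. Argininosuccinate synthase peaks in N1 at 467 ± 10.9 FPKM, arginase-1 is lowest there at 35.0 ± 3.22, the carbamoyltransferase descends from 83.0 ± 1.87 to 54.2 ± 0.283 and the arginase/deacetylase gene climbs from 43.8 ± 0.785 to 71.9 ± 0.827.

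As the 4 genes were chosen with these comparisons known, no call of them is counted. Over all genes edgeR's test called 70.4% in the comparison of N1 with C0 (33.3% higher, 37.1% lower), 69.9% in that of N2 with C0 (35.0% and 34.9%) and 57.9% in that of N2 with N1 (29.4% and 28.5%), and the counts of other genes given further on stand beside these shares. The sizes of the differences can be placed among all tested genes as a description. For N1 against C0 the absolute change of the synthase was larger than that of 77.3% of the genes, of arginase-1 than 68.8%, of the carbamoyltransferase than 26.8% and of the arginase/deacetylase gene than 16.1%. In N2 against C0 the order differed, with 24.3% of genes changing less than the synthase, 42.9% less than arginase-1, 55.7% less than the carbamoyltransferase and 56.3% less than the arginase/deacetylase gene. Only the synthase between N1 and C0 reached an absolute log2 fold change of 1 in any of these comparisons, which 29.4% of all genes reached between N1 and C0, 26.0% between N2 and C0, and 13.8% between N2 and N1.

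By FPKM the synthase exceeded 94.7% of the tested genes in C0, 98.2% in N1 and 96.3% in N2. Arginase-1 exceeded 78.5%, 55.9% and 69.4%, the carbamoyltransferase 82.3%, 76.2% and 71.5%, and the arginase/deacetylase gene 62.6%, 68.4% and 80.0%. Summed over the 4 genes, the level was 409 and 414 FPKM in C0, 617 and 615 in N1, then 439 and 426 in N2. The sum is thus mostly the course of the synthase.

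Because the genes moved in different directions, their proportions within a library shifted as well. The FPKM of the synthase was 3.08 and 2.88 times that of arginase-1 in C0, 14.5 and 12.3 times in N1, then 5.1 and 4.9 times in N2. The ratio in N1 was thus the highest and N2 kept a ratio above that of C0. Against the carbamoyltransferase, the synthase ratio was 2.61 and 2.52 in C0, 7.97 and 6.6 in N1, then 4.86 and 4.56 in N2. The ratio of the carbamoyltransferase to arginase-1 was 1.18 and 1.14 in C0, 1.82 and 1.87 in N1, then 1.05 and 1.08 in N2, so N2 lay just below C0 here. In all 3 ratios N1 was highest and the groups did not overlap, again as a description only.

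**Figure D2:**
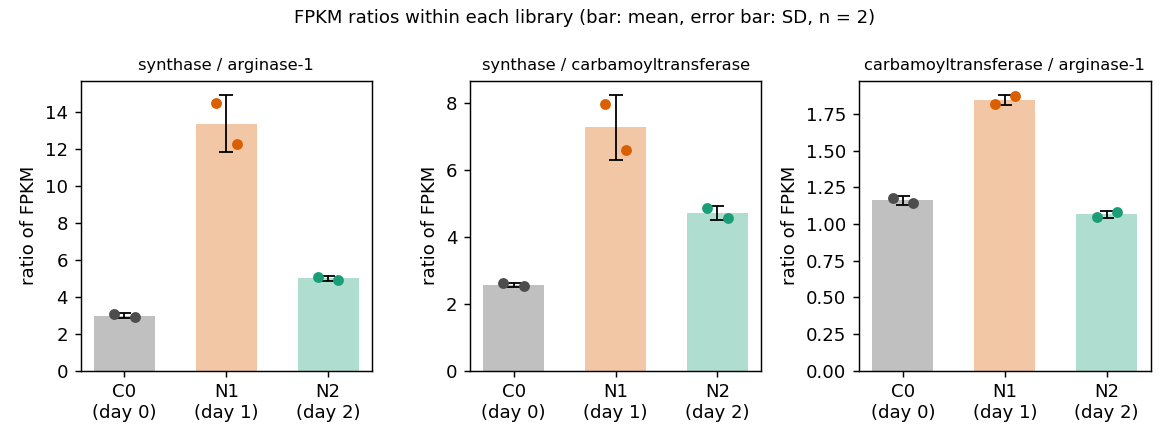
Ratios of FPKM within each library for 3 pairs of the genes (vertical axes from 0), with 1 point per library, bars for the mean and error bars for the SD of 2 libraries. In C0, N1 and N2 the ratio of synthase to arginase-1 was 2.98 ± 0.14, 13.4 ± 1.54 and 5.0 ± 0.14, that of synthase to carbamoyltransferase 2.57 ± 0.0634, 7.28 ± 0.968 and 4.71 ± 0.212, and that of carbamoyltransferase to arginase-1 1.16 ± 0.0261, 1.85 ± 0.0332 and 1.06 ± 0.018.

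The number of transcripts also set the genes apart. The carbamoyltransferase (NO04G04600) and the synthase (NO05G00910) each had 1 transcript in the tables, of 1759 and 1858 bases. Arginase-1 had 3 transcripts, 2 of them with the identifiers of newly assembled transcripts, and the arginase/deacetylase gene had 6, of which 4 were so labelled. For genes with several transcripts the files give a length averaged over the transcripts by their estimated abundance, so a change of length marks a change of the estimated transcript mix. That of NO07G03880 was 2154.3 and 2186.2 bases in C0, 2098.9 and 2111.1 in N1, then 2095.8 and 2088.0 in N2. Every library without nitrogen thus had a shorter average than both C0 libraries. Of the 3455 genes whose length varied, 11.2% had all 4 later libraries below both C0 libraries and 12.1% had them above. The length of arginase-1 was 1279.6 and 1280.2 bases in C0, 1269.0 and 1315.9 in N1, then 1291.7 and 1316.7 in N2, so its groups overlapped.

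**Figure D3:**
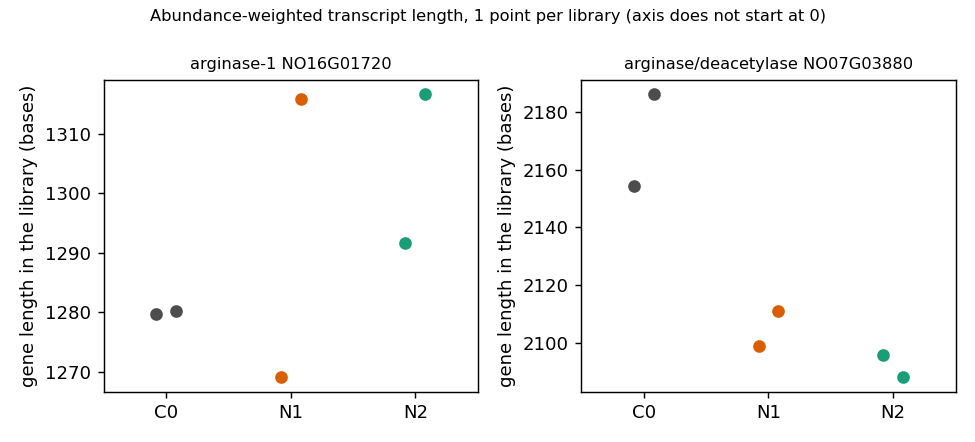
Abundance-weighted transcript length in bases (vertical axes, which do not start at 0) of arginase-1 and of the arginase/deacetylase gene, with 1 point per library. For the arginase/deacetylase gene the C0 libraries lie at 2154.3 and 2186.2 bases and the other 4 between 2088.0 and 2111.1, whereas the arginase-1 groups overlap.

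The other enzymes of the route give the setting of these 4 genes. They were no part of the choice by identifier, and their tests are given. This list and those further on were still chosen with earlier results of these data known. The pathway map used below was added after the data were seen. It holds all of the 7 other genes counted next except NO05G03910. Ureases, glutamine synthetase and glutamate dehydrogenases are in it as well and are counted again in lists further on. The counts of the map and of the lists thus overlap and are not separate results. Of 7 other genes of ornithine, arginine and urea cycle synthesis, 5 rose and 2 fell between C0 and N1 (median log2 fold change 0.24, beside -0.044 over all genes, of which 33.3% were called higher and 37.1% lower). Between C0 and N2, 4 rose, 2 fell and 1 did not pass (median 0.09). Rises there were fewer without C0 replicate 1, C0 replicate 2 or N2 replicate 2. Falls were fewer without C0 replicate 1, C0 replicate 2 or N2 replicate 1. Between N1 and N2, 2 rose, 4 fell and 1 did not pass (median -0.16). The comparisons of N1 and N2 with C0 share the C0 libraries and are given side by side only. Of 18 genes that the files place in the pathway map of arginine biosynthesis, besides 3 of the 4 (the map does not hold NO07G03880), 12 rose and 5 fell in N1 against C0 (median 0.78), 12 rose and 5 fell in N2 against C0 (0.49, 3 falls without C0 replicate 2), and 5 rose and 10 fell in N2 against N1 (-0.36).

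Argininosuccinate lyase (NO08G03940), which acts directly after the synthase, rose from 38.8 ± 3.31 FPKM in C0 to 68.8 ± 1.0 in N1 and fell to 52.0 ± 1.55 in N2. Against C0 it had a log2 fold change of 0.88 ± 0.065 in N1 (edgeR adjusted p = 1.43e-08) and 0.39 ± 0.065 in N2 (adjusted p = 8.39e-05), and N2 against N1 gave -0.49 ± 0.061 (adjusted p = 9.78e-06). The directions of all 3 were those of the synthase. The ratio of synthase to lyase FPKM was 5.18 and 5.83 in C0, 6.98 and 6.61 in N1, then 4.95 and 4.88 in N2, a range far narrower than that of synthase to arginase-1. Over the 6 libraries the lyase profile differed from that of the synthase by a root mean square of 0.199 on the log2 CPM scale after each gene's mean was subtracted, and 261 of the 9735 other tested genes were nearer.

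Among the steps that make ornithine, the acetylated intermediates' enzymes did not move as a block. Acetylglutamate kinase (NO30G01080), the phosphorylating step, rose by 0.32 ± 0.063 in N1 (edgeR adjusted p = 0.000353) and by 0.39 ± 0.062 in N2 (adjusted p = 5.85e-05) against C0, with FPKM means of 110, 133 and 147. N-acetyl-gamma-glutamyl-phosphate reductase (NO12G01660), the next step, rose by 0.68 ± 0.075 in N1 (adjusted p = 1.4e-06) and fell after that, with -0.36 ± 0.07 for N2 against N1 (adjusted p = 0.000496). Acetylornithine aminotransferase (NO30G00610), which forms acetylornithine, had FPKM means of 141, 158 and 131, a rise of 0.22 ± 0.055 in N1 (adjusted p = 0.00227). The call of its decrease in N2 against C0 (-0.13 ± 0.054, adjusted p = 0.0472) was lost without C0 replicate 1 (adjusted p = 0.168), C0 replicate 2 (adjusted p = 0.0743) or N2 replicate 1 (adjusted p = 0.235). It was also lost with library totals alone, the DESeq2 test and limma (adjusted p from 0.0883 to 0.152). Acetylglutamate kinase did not pass between N1 and N2 (0.0656, adjusted p = 0.382), but did without N2 replicate 1 (adjusted p = 0.0406) and with library totals alone (adjusted p = 0.0282).

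Genes for removing or passing on the acetyl group went both ways on the first day. Both ArgJ (NO10G02780), which transfers the acetyl group from acetylornithine to glutamate, and acetylornithine deacetylase (NO09G03530), which removes it by hydrolysis, were lower in both N1 libraries than in any other, as was arginase-1. ArgJ went from 58.3 ± 3.17 to 26.8 ± 0.601 FPKM (log2 fold change -1.06 ± 0.095, edgeR adjusted p = 1.35e-07), and was at 44.8 ± 2.83 in N2 (0.67 ± 0.096 against N1, adjusted p = 3.77e-05). The deacetylase went from 52.5 ± 4.6 to 22.9 ± 0.0212 FPKM (-1.15 ± 0.098, adjusted p = 7.37e-08) and was at 49.9 ± 2.69 in N2, which did not pass against C0 (-0.0841 ± 0.083, adjusted p = 0.38). Its estimated counts were fractional in at least some libraries. A peptidase M20 domain protein (NO04G03390) had the same orthology entry, argE, and was named for its annotation after values were seen. It rose instead, from 47.7 ± 0.453 to 150 ± 8.42 FPKM in N1 (1.71 ± 0.078, adjusted p = 6.04e-11), and was at 115 ± 3.31 in N2 (1.26 ± 0.079, adjusted p = 2.61e-09). The ArgJ profile differed from that of arginase-1 by 0.124 (root mean square, log2 CPM), with 184 of the 9735 other genes nearer. An amino-acid acetyltransferase (NO17G00410), which starts the route by acetylating glutamate, was not held by the list search. It was named for its annotation after values were seen. Its level fell from 108 ± 0.262 to 26.4 ± 1.71 FPKM (-1.97 ± 0.062, adjusted p = 9.8e-13) and was at 36.8 ± 4.24 in N2.

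Carbamoyl phosphate, the other substrate of the carbamoyltransferase, is made by synthases that the files describe in several ways. A gene described as the ammonia-using mitochondrial carbamoyl-phosphate synthase (NO05G03910) was the most abundant gene of the route in C0, with 326 ± 1.35 FPKM, and rose to 371 ± 0.933 in N1 (log2 fold change 0.24 ± 0.031, edgeR adjusted p = 7.1e-06). Its remaining annotation names URA2 and acetyl-CoA carboxylase, so its substrate is not certain. Its rise in N2 against C0 was small (0.0853 ± 0.031, adjusted p = 0.0251) and was lost without C0 replicate 1, C0 replicate 2 or N2 replicate 2 (adjusted p = 0.104, 0.0896 and 0.152). Its fall from N1 to N2 (-0.16 ± 0.031, adjusted p = 0.000661) did not pass with library totals alone (adjusted p = 0.0772) or with limma (adjusted p = 0.182 and 0.176). Another gene with the URA2 entry (NO01G04780, described as PYR1-3) was named for its urea cycle term after values were seen. It had 298 ± 1.27 FPKM in C0, and fell to 59.0 ± 3.25 in N1 (-2.28 ± 0.046, adjusted p = 8.07e-15) and 109 ± 2.05 in N2 (-1.49 ± 0.044, adjusted p = 7.92e-13). A gene described as CAD protein (NO17G01440, also named for its annotation after values were seen) fell less in N1 (-0.47 ± 0.1, adjusted p = 0.000953). URA2 and CAD proteins are known in fungi and animals as the multienzyme that starts pyrimidine synthesis.

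**Figure D4:**
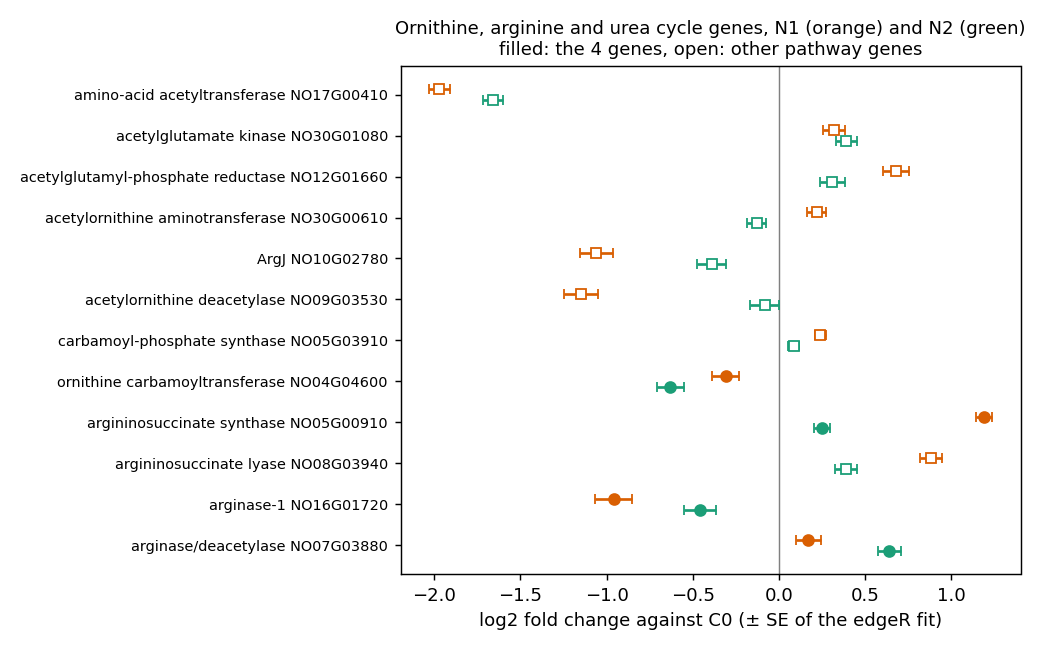
Log2 fold change against C0 (horizontal axis, error bars for the approximate SE of the edgeR fit) of the 4 genes (filled) and of 8 other genes of ornithine and arginine synthesis (open), N1 in orange and N2 in green. The synthase and the lyase lie to the right in N1, at 1.19 and 0.88, and the acetyltransferase, ArgJ, the deacetylase and arginase-1 to the left, at -1.97, -1.06, -1.15 and -0.96.

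In the order of FPKM levels among these 12 genes, the synthase stood second behind NO05G03910 in C0, first in N1 and second in N2. The carbamoyltransferase was sixth in C0, and its range overlapped that of the lyase in N1. Arginase-1 was seventh in C0, where it overlapped with NO12G01660, ninth in N1, and in N2 overlapped with the lyase and with acetylornithine deacetylase. The arginase/deacetylase gene moved from the place before the lowest in C0 to the sixth in N2, where its neighbours did not overlap with it.

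Urea, which arginase releases, is taken up and split by other genes. Of 6 genes of urea use and transport 4 rose, 1 fell and 1 did not pass in N1 against C0 (median log2 fold change 3.04, beside -0.044 over all genes, of which 33.3% were called higher). The numbers were the same in N2 against C0 (median 2.08, beside 0.009 and 35.0%), and 1 rose and 5 fell in N2 against N1 (-0.92, beside 0.005 and 28.5% called lower). The urea-proton symporter DUR3 (NO29G01570), which imports urea, went from 24.6 ± 0.735 FPKM to 556 ± 13.0 and 222 ± 0.276 (4.55 ± 0.048 for N1 against C0, edgeR adjusted p = 5.31e-18). A urease gene (NO02G06110, with fractional counts) went from 15.8 ± 0.233 to 192 ± 0.976 and 109 ± 5.64 FPKM (3.66 ± 0.058 for N1 against C0, adjusted p = 4.67e-16). Those courses peaked in N1 as that of the synthase did, while arginase-1 was lowest there. The urease accessory proteins, which load nickel, went both ways. G (NO17G01380, chosen after its values were seen) went from 81.7 ± 0.629 to 551 ± 17.4 and 294 ± 3.25 FPKM (2.81 ± 0.058 for N1 against C0, adjusted p = 1.06e-14). D (NO14G02290) fell by 0.88 in N2 against C0 (adjusted p = 2.6e-07). F (NO08G03880) fell by 0.43 in N1 (adjusted p = 0.0154), a call lost when C0 replicate 1 (adjusted p = 0.0615) or the first N1 library (adjusted p = 0.143) was left out, and rose by 0.55 from N1 to N2 (adjusted p = 0.00381), lost without N1 replicate 1 (adjusted p = 0.0531). Both calls were also lost with the DESeq2 test (adjusted p = 0.121 and 0.0529).

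Ornithine, the other product of arginase, feeds proline and polyamine synthesis. Of 9 genes between ornithine and proline 4 rose and 4 fell in N1 against C0 (median -0.03, beside 33.3% of all genes called higher and 37.1% lower). In N2 against C0, 3 rose and 6 fell (-0.20, beside 35.0% and 34.9%), and 2 rose and 6 fell in N2 against N1 (-0.29). Without N1 replicate 1 the last counts were 1 and 4, and without N1 replicate 2 or N2 replicate 1 they were 1 and 5. The falls in N2 against C0 were fewer without C0 replicate 1, C0 replicate 2 or N2 replicate 1. Acetylornithine aminotransferase is counted here too. Ornithine aminotransferase (NO07G02440, chosen after values were seen), which moves ornithine toward proline, did not pass in N1 (-0.0325, edgeR adjusted p = 0.69). It was called lower in N2 against C0 (-0.20, adjusted p = 0.0169) and against N1 (-0.17, adjusted p = 0.0498). The former call was lost without C0 replicate 1, C0 replicate 2 or N2 replicate 1 (adjusted p = 0.0503, 0.0602 and 0.07), and the latter when any of the 4 libraries was left out (adjusted p from 0.0573 to 0.151). Proline dehydrogenase (NO08G00440), which breaks proline down, rose from 98.0 ± 0.721 to 297 ± 3.55 FPKM in N1 (adjusted p = 3.64e-13) and was at 310 ± 0.163 in N2. Genes that make proline fell, pyrroline-5-carboxylate reductase (NO02G00970) from 697 ± 12.7 to 186 ± 16.0 and 157 ± 12.1 FPKM (N2 against C0, adjusted p = 1.41e-12), and the synthase of pyrroline-5-carboxylate (NO03G01270, fractional counts) from 510 ± 16.5 to 135 ± 3.38 and 197 ± 2.44 (N1 against C0, adjusted p = 7.81e-14). Ornithine cyclodeaminase (NO28G00310), which turns ornithine into proline in bacteria, rose by 1.44 ± 0.11 in N1 (adjusted p = 1.33e-08) and fell by 0.64 from N1 to N2 (adjusted p = 3.6e-05).

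Of 11 polyamine genes 4 rose and 7 fell in N1 against C0 (median -0.91, beside -0.044 over all genes, of which 37.1% were called lower). In N2 against C0, 2 rose and 7 fell (-1.14, beside 0.009 and 34.9%), and 1 rose and 3 fell in N2 against N1 (-0.21, beside 0.005 and 28.5%). The rises in N1 numbered 2 without C0 replicate 2 or N1 replicate 1, and those in N2 against C0 numbered 1 without N2 replicate 2. S-adenosylmethionine decarboxylase (NO29G00960), which supplies the aminopropyl groups, fell from 426 ± 14.8 to 121 ± 0.771 FPKM in N1 (edgeR adjusted p = 1.41e-13). Spermidine synthase (NO03G01510) fell from 101 ± 6.36 in C0 to 26.8 ± 1.34 in N2 (adjusted p = 6.65e-10). A gene described as a biodegradative arginine decarboxylase (NO27G01360), an enzyme with the same substrate as arginase, had 69.8 ± 1.93, 42.5 ± 1.22 and 29.7 ± 0.771 FPKM, a fall in each comparison (adjusted p of at most 2.38e-06). A gene described as a spermidine hydroxycinnamoyl transferase (NO23G01510) rose by 2.32 ± 0.29 in N2 against C0 (adjusted p = 4.71e-06). The orthology entry of NO23G01510 is HCT (E2.3.1.133), so its substrate is not certain, and the C0 libraries held only 18 and 26 counts of it. Its rise in N1 (0.94 ± 0.34, adjusted p = 0.0232) was lost without C0 replicate 1 (adjusted p = 0.139), without N1 replicate 2 (adjusted p = 0.328) and with limma (adjusted p = 0.148 and 0.144).

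The carriers of ornithine and basic amino acids held 4 genes. In N1 against C0, 3 fell (median -0.72, beside 37.1% of all genes called lower). Fewer fell there without C0 replicate 1 or either N1 library. In N2 against C0, 2 fell (-0.30, beside 34.9%), and 1 rose in N2 against N1 (0.14, beside 29.4% called higher). No carrier rose in the first 2 comparisons. Without C0 replicate 2, 1 gene rose in N2 against C0, and without N1 replicate 1, 1 fell in N2 against N1. A gene described as a mitochondrial ornithine transporter (NO01G05480) fell from 81.0 ± 3.89 to 24.9 ± 5.52 and 21.6 ± 2.84 FPKM (edgeR adjusted p = 1.06e-08 in N1 and 1.83e-09 in N2). In animals the ornithine transporter links the mitochondrial and cytosolic arms of the cycle. The orthology entry of NO01G05480 is SLC25A20_29, also named CACT, CACL and CRC1, so its substrate is not certain. Pyrimidine synthesis from carbamoyl phosphate had 3 genes. Against C0, 2 fell in N1 (median -0.41) and in N2 (-0.33), beside 37.1% and 34.9% of all genes called lower. In N2 against N1, 1 rose and 1 fell (0.09). The falls numbered 1 in N1 without C0 replicate 1 or N1 replicate 2, and 1 in N2 against C0 without C0 replicate 1 or N2 replicate 1. Orotate phosphoribosyltransferase (NO07G02770) fell by 1.13 in N1 (adjusted p = 5.03e-09), and dihydroorotase (NO15G01830) had a log2 fold change of -0.32 ± 0.082 between N1 and N2 (adjusted p = 0.00439). The small rise of NO07G02770 from N1 to N2 (0.23, adjusted p = 0.0244) was lost when any of the 4 libraries was left out (adjusted p from 0.0508 to 0.197), with DESeq2 size factors (0.0521) and with the DESeq2 test (0.239).

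**Figure D5:**
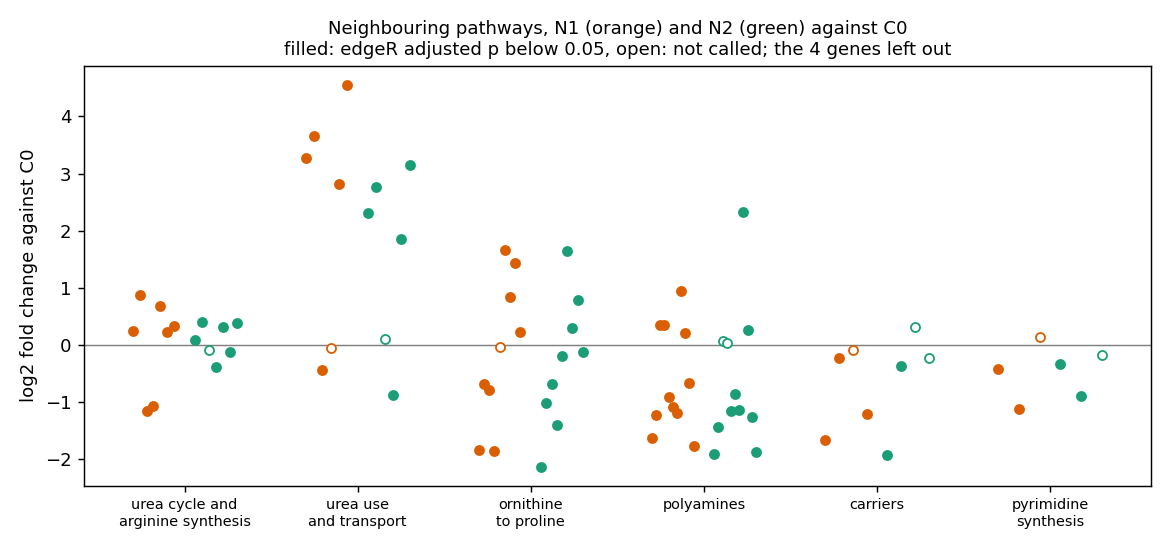
Log2 fold change against C0 (vertical axis) of the genes of 6 neighbouring pathways, with the 4 genes left out, N1 in orange and N2 in green, filled where edgeR's adjusted p was below 0.05. The 4 raised genes of urea use and transport reach 4.55 in N1, and most polyamine genes and carriers lie below 0.

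Genes that supply ammonium and amino groups, the nitrogen sources of carbamoyl phosphate and aspartate, went both ways. Of 20 tested genes of 21, 8 rose and 9 fell in N1 against C0 (median -0.14, beside 33.3% of all genes called higher and 37.1% lower). In N2 against C0, 9 rose and 8 fell (0.18, beside 35.0% and 34.9%), and 6 rose and 8 fell in N2 against N1 (-0.16). Cytosolic glutamine synthetase (NO07G03230), which binds ammonium, rose 8.41-fold in N1 (edgeR adjusted p = 5.88e-17) and was at 4.1-fold in N2. Glutamate synthase (NO08G04050) went from 81.5 ± 3.1 to 587 ± 1.03 and 452 ± 22.8 FPKM. It was at 7.47-fold in N1 (adjusted p = 8.74e-17) and 5.41-fold in N2 against C0 (adjusted p = 6.52e-16), and fell from N1 to N2 (adjusted p = 8.95e-08). The NADP-specific glutamate dehydrogenase (NO16G00690) had 89.6 ± 0.983, 452 ± 11.6 and 225 ± 5.37 FPKM, while the NAD-specific one (NO01G02980) was at 26.5 ± 0.94 in C0 and 25.8 ± 1.25 in N1 and rose to 84.7 ± 6.8 in N2 (N2 against N1, adjusted p = 3.27e-10). Aspartate aminotransferases, a family that forms aspartate, a substrate of the synthase, differed. The mitochondrial one (NO07G01910, chosen after its values were seen) rose by 0.98 ± 0.063 in N1 (adjusted p = 3.31e-09) and by 0.59 ± 0.063 in N2 against C0 (adjusted p = 9.61e-07), and a cytoplasmic one (NO24G00670, chosen likewise) fell by 1.07 in N1 (adjusted p = 2.47e-07). NO16G00530, also described as an aspartate aminotransferase but with an orthology entry for the katanin KATNA1, fell by 1.61 in N2 against C0 (adjusted p = 2.3e-09). The search also took in genes of folate metabolism, which are part of the counts above. Folylpolyglutamate synthase (NO12G02010) fell by 2.07 in N1 (adjusted p = 7.39e-10). Another gene of that description (NO04G00340, chosen after its values were seen) was among the rises against C0, with 0.476 in N1 and 0.273 in N2. NO08G02720, a dihydrofolate and folylpolyglutamate synthase, was on the list but not tested.

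Genes that use arginine in proteins or bind to such enzymes numbered 17. In N1 against C0, 4 rose and 9 fell (median -0.34, beside 33.3% of all genes called higher and 37.1% lower). In N2 against C0, 4 rose and 10 fell (-0.47, beside 35.0% and 34.9%), and 4 rose and 5 fell in N2 against N1 (-0.02). Without C0 replicate 2 the rises in N1 numbered 2, and without N2 replicate 1 the falls from N1 to N2 numbered 3. An organellar arginine-tRNA ligase (NO04G02920) fell from 158 ± 1.51 to 35.8 ± 1.68 FPKM in N1 (edgeR adjusted p = 2.18e-13), and another arginine-tRNA ligase (NO09G02200, fractional counts) fell by 0.82 from N1 to N2 (adjusted p = 3.27e-05). Among the genes that were higher, a putative protein arginine methyltransferase 9 (NO07G02070) rose by 0.73 ± 0.12 in N1 (adjusted p = 7.09e-05). A nitric oxide synthase-interacting protein (NO09G04040) rose by 0.89 ± 0.13 in N2 against C0 (adjusted p = 2.88e-05). Methyltransferase 7 (NO28G01460) was at 8.7 ± 0.113, 5.18 ± 0.622 and 12.8 ± 1.74 FPKM. It was lower in N1 than in C0 (-0.75 ± 0.23, adjusted p = 0.00903) and rose by 1.44 ± 0.21 from N1 to N2 (adjusted p = 3.82e-05).

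Since the annotation of NO07G03880 points to deacetylases, genes with such descriptions were counted as well. Of 12 genes described as deacetylases or their partners, 3 rose and 5 fell in N1 against C0 (median -0.07, beside 33.3% of all genes called higher and 37.1% lower). In N2 against C0, 2 rose and 6 fell (-0.28, beside 35.0% and 34.9%), and 1 rose and 4 fell in N2 against N1 (-0.06). Of the rises in N2 against C0, that of NO18G01410 rested on 1 library, with 75 counts in N2 replicate 2 and 0 in N2 replicate 1 and in both C0 libraries. The call was lost without either C0 library (adjusted p = 0.0797 and 0.0844) and under the test of DESeq2 (adjusted p = 0.184). Leaving out C0 replicate 1, C0 replicate 2 or N2 replicate 2 gave 1 rise in the list. In N2 against N1 the rises numbered 2 without N2 replicate 2. Not every gene of the list shares the arginase fold. The sirtuins and a complex subunit do not, and no shared fold is claimed for the genes described as type-2 histone deacetylases, NO18G01410 among them. The sirtuins NO20G01210 (fractional counts) and NO27G00700 fell by 2.23 and 2.32 in N1 (edgeR adjusted p = 1.34e-12 and 1.54e-10). Histone deacetylase 6 (NO03G04700) went from 3.77 ± 1.03 to 12.4 ± 0.488 and 7.28 ± 0.87 FPKM (adjusted p = 5.34e-06 in N1), so that it peaked a day before the arginase/deacetylase gene. Of 2 other genes with the same uncharacterized bacterial protein slr0245 among their matches, both with fractional counts, both rose in N1 and both fell in N2 against C0 and against N1. The N1 rise of NO09G02880 was small (0.18, edgeR adjusted p = 0.00973) and was lost without C0 replicate 1 (adjusted p = 0.065), with library totals alone (0.0521) and with limma (0.227 and 0.216), and with limma its fall in N2 against C0 was lost too (0.0721 and 0.0674). NO09G02900 was at 37.2 ± 5.35, 68.7 ± 6.22 and 25.7 ± 3.73 FPKM, and its fall in N2 against C0 (adjusted p = 0.00613) was lost without either C0 replicate 1 (adjusted p = 0.0859) or N2 replicate 2 (adjusted p = 0.0641).

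The genes whose profile over the 6 libraries lay nearest to each of the 4 were taken by the root mean square difference of log2 CPM, after each gene's mean was subtracted, as a description. Nearest to the synthase were an ABC transporter B family member (NO20G02370, 0.0575), ceramide synthase 5 (NO09G03700, 0.0687) and subunit G of the V-type proton ATPase (NO04G03350, 0.0694). Arginase-1 lay nearest to a complex I intermediate-associated protein (NO01G04480, 0.0548), the 60S ribosomal protein L27a-3 (NO09G01130, 0.0559) and polyubiquitin 8 (NO28G00190, 0.0563). For the carbamoyltransferase they were splicing factor 3A subunit 2 (NO10G03070, 0.0404), a dehydrogenase/reductase (NO11G02850, 0.0439) and a regulatory subunit of protein phosphatase 1 (NO05G03840, 0.0542). The arginase/deacetylase gene had a prolyl 4-hydroxylase (NO10G01980, 0.0411), a timeless homolog (NO28G00580, 0.0464) and a glucose-6-phosphate exchanger (NO05G03350, 0.056). None of the 4 genes had another gene of the route among its 3 nearest, and the synthase and arginase-1 differed by 0.883.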

How the data were processed

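Poly-A RNA had been sequenced as strand-nonspecific paired-end libraries, so a read gives no strand, and genes that overlap in opposite orientation share reads. Per the submitters' notes and the study's methods, Trim Galore, STAR, Picard, featureCounts, StringTie and edgeR were used, with no versions given, on the IMET1 genome. The columns resemble those of RSEM, which no source names. The deposited tables hold expected counts, estimated by the authors with decimals, TPM and FPKM values computed by the authors, and a length per gene. The authors' comparison tables hold their log2 fold changes, p-values and false discovery rates, and were not used.

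The design assumed whole counts. The estimated counts were rounded, which changed a library total by at most 19.0. The filter kept the 9736 genes that reached 1 CPM in 2 or more libraries and left out 833. TMM factors lay between 0.962 and 1.04, and the test was that of edgeR 4.0.16 (R 4.3.3), glmQLFit and glmQLFTest, 6 libraries in 1 fit, group as the only term, two-sided, with Benjamini-Hochberg adjustment over all genes tested. An approximate SE was obtained by dividing the size of the log2 fold change by the root of F. The code was tested on simulated data.

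The 4 genes and the gene lists were chosen with earlier results of these data known. The lists were searched in the protein descriptions (urea cycle and arginine synthesis, urea use and transport, ornithine to proline, polyamines, ammonium and amino group supply, pyrimidine synthesis, arginine use in proteins, carriers, histone deacetylase relatives), with the slr0245 matches and, added after seeing the data, the arginine biosynthesis pathway map. Named were every gene of the first list and, for each other list and comparison, the called gene with the largest rise and that with the largest fall (mean of at least 10 CPM), and the 3 genes with a named function nearest to each of the 4 (log2 CPM with a prior of 2). The other genes named, among them NO17G00410, NO01G04780, NO17G01440, NO07G02440, NO04G03390, NO07G01910, NO24G00670, NO17G01380 and NO18G01410, were chosen by annotation or value after values were seen. Alternatives were DESeq2 1.42.0 (size factors and test), library totals alone, no filter, a minimum of 5 CPM, unrounded counts, limma 3.58.1 on log2(FPKM + 1) and log2(FPKM + 0.1), a replicate block, the 4 libraries of the compared groups, and leaving out each library.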

Additional observations from a re-analysis of the deposited data

How the results depend on the processing

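The 4 genes kept the sign of every difference under the 14 alternatives run. For N1 against C0 the log2 fold change of the synthase was 1.134 with library totals alone, 1.129 and 1.132 with limma at pseudocounts of 1 and 0.1, 1.230 with the 4 libraries alone and between 1.17 and 1.25 without 1 library. That of NO07G03880 was 0.205 with DESeq2 size factors and with the DESeq2 test, 0.119 with library totals alone, 0.214 with the 4 libraries alone and between 0.16 and 0.23 without 1 library. For N2 against C0 library totals alone gave -0.587 for the carbamoyltransferase and 0.678 for NO07G03880, and limma gave 0.705 and 0.716 for the latter. For N2 against N1 the synthase was at -0.848 with library totals alone, at -0.869 and -0.871 with limma and between -1.01 and -0.91 without 1 library, and NO07G03880 was at 0.428 with DESeq2 size factors and test, 0.559 with library totals alone, 0.541 and 0.549 with limma and between 0.41 and 0.48 without 1 library. The cause was not tested.

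Labels share replicate numbers across groups, but nothing says that equal numbers were paired, and deviations of equal numbers correlated with r = -0.029 (C0 and N1), 0.005 (C0 and N2) and -0.022 (N1 and N2). With the replicate block 6745, 6689 and 5527 genes were called in N1 against C0, N2 against C0 and N2 against N1, beside 6851, 6806 and 5633, and the 7 other route genes had 7, 6 and 6 calls.

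With 2 libraries per group an SD rests on a single difference. Leaving out 1 library lowered the number of calls over all genes in each comparison. Among the 7 other route genes it lowered the number of calls in N2 against C0, but not in N1 against C0 or N2 against N1. As most genes were called in each comparison with all libraries, calls of the route genes are no trait particular to the route. A group left with 1 library is assumed to vary like the others.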
